A study of Mus musculus with 8 samples.

Results

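The apolipoprotein L genes of the mouse were followed in MC38 cells, a murine colon adenocarcinoma line, by RNA-seq of control and DENR KO cells with and without IFNγ. The family was taken as 8 genes by their symbols, Apol6, Apol7a, Apol7c, Apol8, Apol9a, Apol9b, Apol10a and Apol10b. Of these, 6 were listed in both tables of normalized read counts, among 20432 genes that both tables hold. Apol7c and Apol10a were not listed and are not analysed here. Apol8 was listed but its mean was under 10 normalized counts, so 5 members entered the tests. Normalized counts here are reads divided by a size factor that corrects each sample for its depth.

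There were 4 groups of 2 samples: control cells with IFNγ, DENR KO cells with IFNγ, untreated control cells and untreated DENR KO cells. IFNγ was given at 20 ng/ml for 4 h. The control cells are labelled wild type, and the knockout was made with CRISPR. The labels do not say which guide was used, whether the KO cells are 1 clone, or whether replicates are separate cultures, so the p-values measure the spread between these samples, which may be technical. DENR is a translation factor that helps ribosomes restart after short upstream reading frames.

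Denr, the targeted gene, was at 1438 and 1401 normalized counts in control cells and at 946 and 957 in DENR KO cells with IFNγ, and at 1448 and 1297 against 943 and 916 untreated. The KO samples were below the control samples under both treatments, with a log2 fold change of -0.58 (SE 0.071, limma adjusted p = 8.2e-06) with IFNγ and -0.56 (SE 0.078, limma adjusted p = 1.1e-04) untreated. Reads on genes ran from 17369020 to 18403790 per sample. The epithelial marker list had 5 of 7 genes listed, none with 10 normalized counts in every sample and a sum of 12.7 to 24.6 per sample, and Epcam and Cdx2 were not listed, so these epithelial markers of colon were near 0. Of 5 fibroblast markers, 4 had at least 10 normalized counts in every sample. Their summed level was 16551 to 16837 in control and 14912 to 15407 in KO cells with IFNγ, and 17652 to 18055 against 16286 to 16861 untreated, and its part in the results below was not tested. The members of the list did not move together: with IFNγ, KO cells held 72.2% of the control level of Dcn, 96.3% of Col1a1, 100.8% of Col1a2 and 135.2% of Pdgfrb. The leukocyte list, of which Cd68 alone reached 10 in every sample, summed to between 52.3 and 82.5 normalized counts per sample, and the endothelial list to between 15.6 and 31.2.

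Apolipoprotein L proteins share a lipid-binding, channel-forming fold related to that of human APOL1, the serum factor that lyses trypanosomes, and most members lack a secretion signal and act inside the cell. IFNγ binds the receptor subunits Ifngr1 and Ifngr2, which signal through the kinases Jak1 and Jak2 to genes with GAS elements. IRF1, a transcription factor induced by IFNγ, binds elements related to the ISRE, and many interferon-induced genes carry such an element close to their start.

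The 6 listed members lie on chromosome 15 of GRCm38 within 712 kb, from position 77044729 to 77757003. Apol6 (ENSMUSG00000033576) lies at chr15:77044729-77057106 on the plus strand, at 1 end of the cluster. Apol7a (ENSMUSG00000010601) lies at chr15:77388219-77399110 and Apol9a (ENSMUSG00000057346) at chr15:77403789-77411135, both on the minus strand. Apol10b (ENSMUSG00000050014) lies at chr15:77583819-77596125 on the minus strand and Apol9b (ENSMUSG00000068246) at chr15:77729039-77736382 on the plus strand. Apol8 (ENSMUSG00000056656), at chr15:77747798-77757003 on the minus strand, closes the listed cluster. All 6 are annotated as protein coding.

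RefSeq promoters (GRCm38.p6, 250 bases before to 50 bases after a start) were found for 7 of the 8 members and were searched on both strands for the ISRE letters, GAAA followed after any 2 bases by GAAA, and the GAS letters, TTC followed after any 3 bases by GAA. Of all 32851 promoters in the table, 3.44% held the ISRE letters and 8.30% held the GAS letters. Counted by gene, 3.99% of 27025 genes held the ISRE letters and 9.55% the GAS letters. The ISRE letters were found in 5 members, Apol9a, Apol9b, Apol10b, Apol10a and Apol7c, and the GAS letters in Apol10a alone. Apol7a and Apol8 held neither in this window, and Apol6 had no entry. The windows below show the ISRE match of each member that had one, with 10 bases on either side of the match, which is in capitals. Every one is printed in the direction of its gene and carries the ISRE letters on the opposite strand, so that they read TTTC, any 2 bases, TTTC.
Apol9a: gaggtgagacTTTCAGTTTCcatttcccag
Apol9b: gaggtgagacTTTCAGTTTCcatttcccag
Apol10b: gaaattttacTTTCATTTTCgtgcactgag
Apol10a: gaaatttttcTTTCACTTTCatgcattggg
Apol7c: gaaatggggcTTTCTCTTTCcttttctgct
The windows lie at chr15:77411120-77411149 (Apol9a, minus strand), chr15:77729025-77729054 (Apol9b, plus), chr15:77596110-77596139 (Apol10b, minus), chr15:77476986-77477015 (Apol10a, plus) and chr15:77533351-77533380 (Apol7c, minus). In Apol9a and Apol9b a second match began 6 bases on and overlapped the first, and Apol7c had such a second match too. At least 2 ISRE matches were present in 0.225% of all promoters. The Apol9a and Apol9b promoters were identical over all 281 bases that could be aligned, at a shift of 19 bases. A match is a description of letters and no evidence that a factor binds there.

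All 5 members tested rose with IFNγ in control cells, from 3.12-fold for Apol7a to 336-fold for Apol6. These comparisons of IFNγ with untreated cells used whole reads recovered from both tables, because the tables had been normalized separately, and were made with edgeR. A gene was counted as changed at an adjusted p under 0.05 and a log2 fold change beyond 1. In control cells 5 of 5 members were higher, where 3.02% of 14021 genes were. In DENR KO cells 5 of 5 were higher, where 2.18% of genes were. The median log2 fold change of the members was 3.22 in control and 2.73 in KO cells, while that of all genes was -0.0036 and -0.0017. Statements below that treated samples lay above untreated ones compare normalized counts scaled separately for each treatment. The share of all genes with that order was not counted.

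Apol6, the mouse relative of human APOL6, an intracellular protein, was close to silent before IFNγ. It was at 7.04 and 10.2 normalized counts in untreated control cells and at 8.83 and 18.7 in untreated KO cells, against 2857 and 2701 in control cells and 1414 and 1319 in KO cells with IFNγ. Every treated sample was above every untreated sample, and untreated cells held 17 reads in control and 28 reads in KO over 2 samples. The edgeR log2 fold change was 8.39 (SE 0.153, adjusted p = 2.2e-24) in control cells, the 12th highest of 14021 genes, and 6.70 (SE 0.150, adjusted p = 3.4e-22) in KO cells, the 16th highest. With reads divided by size factors, the ratio was 323 in control cells (exact 95% interval 201 to 554) and 99.4 in KO cells (68.6 to 150). These intervals cover counting error only, and the size factors were set separately for each treatment. Ratios for Apol8 and Apol11b below were made the same way. The fold in KO cells moved with the untreated KO samples, to a log2 value of 6.26 without replicate 1 and 7.33 without replicate 2. Apol6 overlaps Mb, the myoglobin gene on the opposite strand, over 5942 bases, and Mb had between 0 and 1.97 normalized counts with IFNγ. The strand setting of the counting is not given in the sources used here.

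Apol9a and Apol9b, the closely related pair studied as interferon-stimulated antiviral and lipid-binding genes, were expressed before IFNγ and rose to a similar extent. Apol9a was at 342 and 286 normalized counts in untreated control and 295 and 306 in untreated KO cells, and at 2800 and 2319 in control and 1971 and 1801 in KO cells with IFNγ. Apol9b was at 291 and 200.02 in untreated control and 311 and 283 in untreated KO cells, and at 2309 and 2034 in control and 1785 and 1545 in KO cells with IFNγ. For both genes every treated sample was above every untreated sample. The edgeR log2 fold change of Apol9a was 3.11 (SE 0.10, adjusted p = 2.7e-15) in control and 2.73 (SE 0.101, adjusted p = 3.9e-14) in KO cells. That of Apol9b was 3.22 (SE 0.148, adjusted p = 1.2e-07) in control and 2.56 (SE 0.144, adjusted p = 9.5e-07) in KO cells. Of the 50-base windows of their transcripts, 52.3% of those of Apol9b and 16.5% of those of Apol9a occur in another Apol gene. Genes outside the family were not searched. Of the 150-base windows 22.5% and 7.10% are shared between this pair, so the division of reads between them is uncertain.

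Apol10b rose from a lower start. It was at 49.3 and 49.0 normalized counts in untreated control and 74.6 and 64.9 in untreated KO cells, and at 823 and 837 in control and 595 and 582 in KO cells with IFNγ. The 4 groups did not overlap, and the KO samples were the higher pair untreated and the lower pair with IFNγ. The edgeR log2 fold change with IFNγ was 4.15 (SE 0.127, adjusted p = 2.0e-19) in control and 3.15 (SE 0.121, adjusted p = 4.9e-17) in KO cells.

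Apol7a had the smallest rise of the members tested. It was at 102 and 110.2 normalized counts in untreated control and 129 and 91.4 in untreated KO cells, and at 291 and 334 in control and 219 and 256 in KO cells with IFNγ. Treated samples were all above untreated samples, and the untreated KO samples lay on either side of the untreated controls. The edgeR log2 fold change was 1.64 (SE 0.161, adjusted p = 1.1e-08) in control and 1.19 (SE 0.162, adjusted p = 4.7e-06) in KO cells. Of the 50-base windows of Apol7a, 13.4% occur in another Apol gene, most often in Apol7b.

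Apol8 stayed at the edge of detection. It was at 4.02 and 1.02 normalized counts in untreated control, 2.94 and 1.97 in untreated KO, 10.2 and 8.05 in treated control and 6.89 and 5.86 in treated KO cells. Treated samples were above untreated ones, on 18 against 5 reads in control cells (ratio 3.61, exact 95% interval 1.29 to 12.4) and 13 against 5 in KO cells (ratio 2.60, 0.869 to 9.30). The counting interval in KO cells includes no change. With no filter on low counts, Apol8 did not pass in edgeR, with an adjusted p of 0.21 in control and 0.55 in KO cells.

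**Figure D1:**
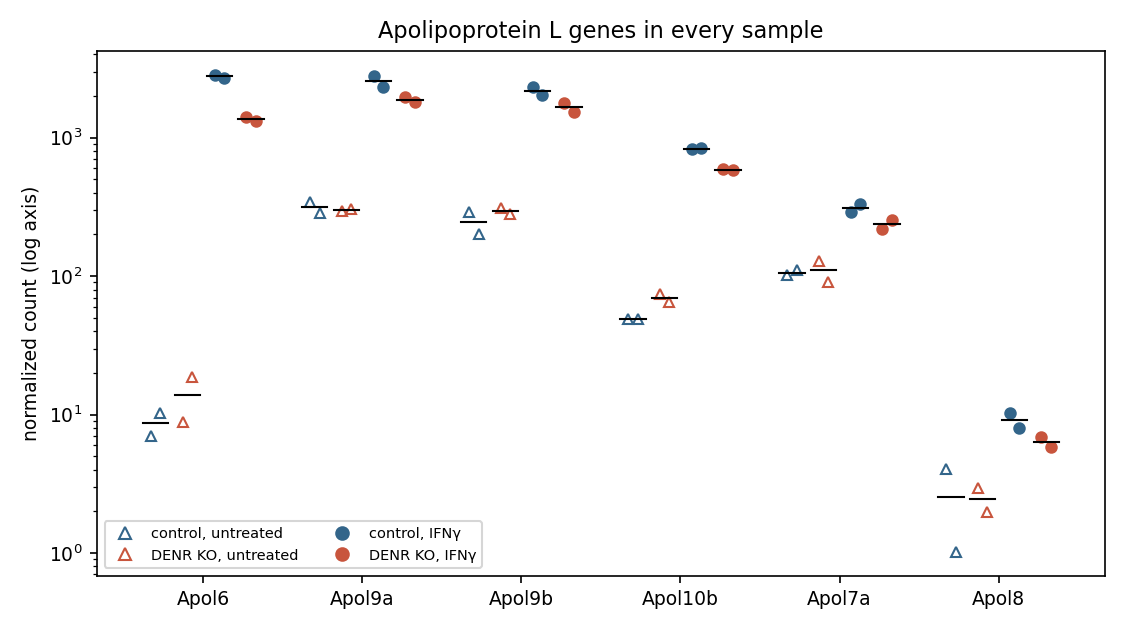
Normalized counts (log axis) of the 6 listed apolipoprotein L genes in each of the 8 samples, with triangles for untreated and filled circles for IFNγ-treated cells, and lines at the mean of each pair. Apol6 runs from 7.04 to 2857. In the 5 tested genes both treated KO samples lie below both treated controls, an order that 20.8% of 13928 genes had. Apol8, not tested for its few reads, has the same order.

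**Figure D2:**
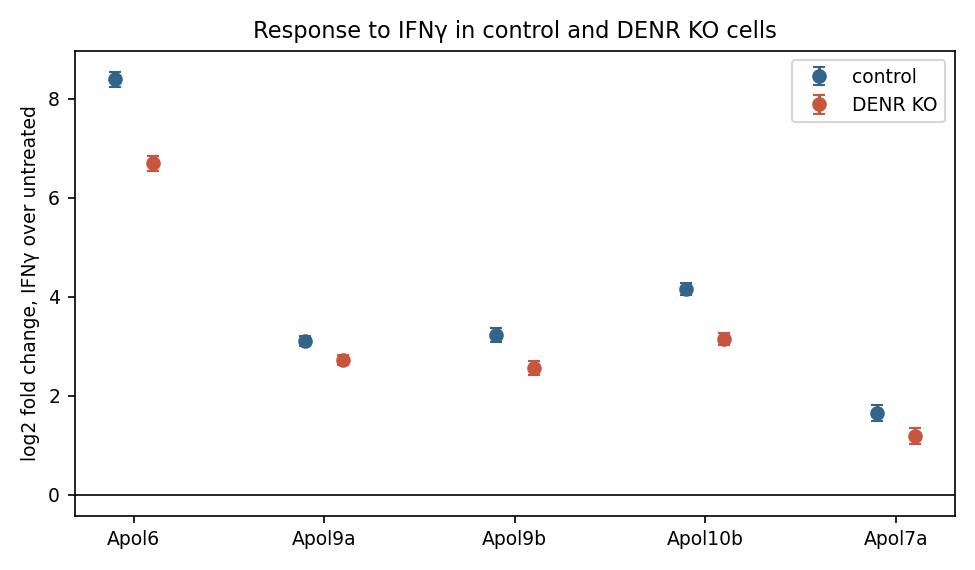
The log2 fold change with IFNγ (edgeR, error bars 1 SE) of the 5 tested members in control and in DENR KO cells. In control cells it runs from 1.64 for Apol7a to 8.39 for Apol6, and for each member the estimate in KO cells is the lower one.

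With IFNγ, all 5 tested members lay lower in DENR KO than in control samples, and 4 of 5 passed an adjusted p under 0.05 in limma, where 2.25% of 13928 genes were lower at this threshold. With a log2 fold change beyond 0.5 required as well, 1 of 5 was counted, Apol6, where 1.03% of genes were lower. In all 5 both KO samples lay below both controls, which was so for 20.8% of genes, and Apol8 had the same order. The median log2 fold change of the members was -0.44 and that of all genes -0.00036. These fold changes are on the log2(normalized count + 1) scale and were fitted within the table of treated samples. In bulk samples fewer responding cells and less RNA per cell cannot be told apart.

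Apol6 fell to 49.2% of its control level, a log2 fold change of -1.02 (SE 0.066, limma adjusted p = 2.7e-10). Apol10b had -0.49 (SE 0.083, limma adjusted p = 4.9e-04), Apol9a -0.44 (SE 0.081, limma adjusted p = 0.0037) and Apol9b -0.38 (SE 0.077, limma adjusted p = 0.0046). These 3 were at 71.0%, 73.7% and 76.7% of control. Apol7a was at 76.0% of control with a log2 fold change of -0.39, of the size seen for Apol9b, but its SE of 0.125 left it short of the threshold (limma adjusted p = 0.086). In a single fit of all 8 samples the estimate of Apol6 was again -1.02, with an SE of 0.305 and an adjusted p of 0.16 in limma, and Apol9b had an adjusted p of 0.44 there. Without control IFNγ replicate 1 the log2 fold change of Apol9a was -0.30 and that of Apol7a was -0.49, the latter with a limma adjusted p of 0.032. Without DENR KO IFNγ replicate 2 Apol7a had -0.51 and a limma adjusted p of 0.042. Without control IFNγ replicate 2 or DENR KO IFNγ replicate 1 it had -0.30 and -0.28, with limma adjusted p of 0.48 and 0.58. In these fits 1 sample stands against 2, and the lone sample is assumed to vary like the other group.

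Without IFNγ, none of the 5 members passed the test between DENR KO and control cells by limma, edgeR or DESeq2, where 0.15% of 13998 genes were lower and 0.429% higher at an adjusted p under 0.05 in limma. With the fold threshold these shares of genes were 0.0857% and 0.129%. At an unadjusted p under 0.05, 1 of 5 passed in limma and 0 in edgeR and DESeq2. That 1 was Apol10b, at 141.8% of control with a log2 fold change of 0.49 (SE 0.24, limma adjusted p = 0.54), and it was the 1 member whose pairs did not overlap, with the KO samples higher, an order that 20.4% of genes had. Apol9b had 0.30 (SE 0.15, limma adjusted p = 0.58), Apol7a 0.03 (SE 0.19, limma adjusted p = 0.98) and Apol9a -0.06 (SE 0.12, limma adjusted p = 0.93). Apol6, on its few reads, had 0.55 with an SE of 0.55 (limma adjusted p = 0.81), so a change of this size was not detectable at this depth.

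Whether DENR KO acted differently on the family with and without IFNγ was asked with an interaction term over the 8 samples. All 5 estimates were negative, with a median of -0.68 where that of all genes was 0.00096, and 1 of 5 passed an adjusted p under 0.05, where 0.429% of 13998 genes did in this direction. That 1 was Apol10b, with an interaction of -0.99 (SE 0.186, limma adjusted p = 0.0087). Its estimate ran from -1.09 to -0.89 when samples were left out 1 at a time, and the limma adjusted p rose to between 0.059 and 0.086 without any 1 of the 4 treated samples and to 0.073 without untreated DENR KO replicate 1. Apol6 had the interaction farthest from 0, -1.57 (SE 0.43), which did not pass in limma (adjusted p = 0.42) or edgeR (adjusted p = 0.078) and passed in DESeq2 (-1.71, adjusted p = 0.046). Without untreated DENR KO replicate 1, which held 9 reads of Apol6, it was -2.08 with a limma adjusted p of 2.6e-04, and without untreated DENR KO replicate 2 it was -1.07 with a limma adjusted p of 0.085. Apol9b had -0.68 (SE 0.25, limma adjusted p = 0.76). It moved to -0.95 (limma adjusted p = 1.1e-04) without untreated control replicate 1 and to -0.41 (limma adjusted p = 0.36) without untreated control replicate 2. Apol7a had -0.43 (limma adjusted p = 0.93), with -0.19 without untreated DENR KO replicate 1 and -0.67 without untreated DENR KO replicate 2. Apol9a had -0.38 (limma adjusted p = 0.56), with a range of -0.51 to -0.24 when samples were left out, the value nearest 0 coming without control IFNγ replicate 1. Where a sample is left out, its group is 1 sample that is assumed to vary like the other groups.

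**Figure D3:**
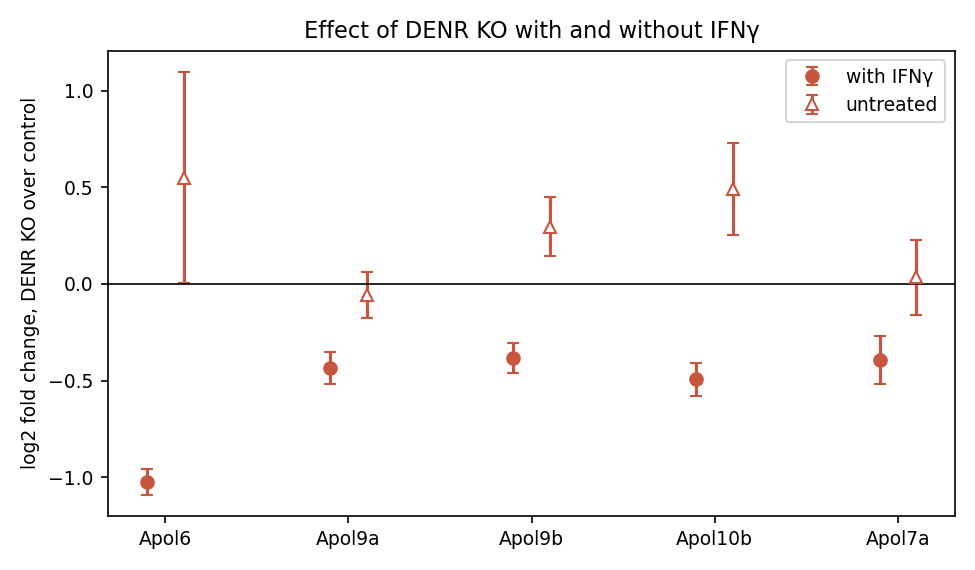
Effect of DENR KO on the 5 tested members as log2 fold changes relative to control (limma, log2 of the normalized count + 1, error bars 1 SE), with IFNγ and untreated. With IFNγ all 5 lie below 0, from -1.02 for Apol6 to -0.38 for Apol9b, and untreated they run from -0.06 for Apol9a to 0.55 for Apol6.

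Levels of different members were compared per kilobase of gene length. In control cells with IFNγ the order by normalized counts per kb was Apol9b (1192), Apol6 (618), Apol9a (430), Apol10b (357), Apol7a (103) and Apol8 (3.09), and the samples of neighbours in it did not overlap. In KO cells with IFNγ it was Apol9b (914), Apol9a (317), Apol6 (304), Apol10b (253), Apol7a (78.5) and Apol8 (2.15). Apol6 and Apol9a could not be ordered there, at 314 and 293 per kb for Apol6 and 331 and 303 for Apol9a. In untreated control cells the order was Apol9b (135), Apol9a (52.7), Apol7a (35.0), Apol10b (21.1), Apol6 (1.92) and Apol8 (0.852), again without overlap between neighbours, so Apol6 was the second highest member with IFNγ and the second lowest without. In untreated KO cells Apol9b (163), Apol9a (50.5), Apol7a (36.3), Apol10b (29.98), Apol6 (3.06) and Apol8 (0.829) kept that order, with Apol7a at 42.4 and 30.2 per kb overlapping Apol10b at 32.1 and 27.9. The gene length of Apol9a, 5953 bases, is over that of Apol9b, 1821 bases, and their order per kb follows from it, since their normalized counts were close.

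The sum over the 6 genes was 2827 and 2580 normalized counts per kb in treated control and 1957 and 1781 in treated KO cells, and 275 and 218 against 298 and 269.6 untreated. The treated pairs did not overlap, with KO lower, an order that 20.8% of 13928 single genes had. Apol6 made up 22.5% and 23.3% of that sum in treated control cells and 16.1% and 16.5% in treated KO cells. Apol9b made up 44.8% and 43.3% in treated control and 50.1% and 47.6% in treated KO cells. The sum and these shares depend on the annotated gene lengths, of which that of Apol9b is 1821 bases.

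Within a sample, ratios between members are free of the size factor. With IFNγ the ratio of Apol6 to Apol9a normalized counts was 1.02 and 1.17 in control and 0.717 and 0.732 in KO cells. That of Apol6 to Apol10b was 3.47 and 3.23 in control and 2.38 and 2.27 in KO cells. In both ratios the KO samples were below the controls, and so they were for Apol6 over Apol9b (1.24 and 1.33 against 0.792 and 0.853) and over Apol7a (9.82 and 8.08 against 6.44 and 5.15). The ratio of Apol9a to Apol9b was 1.21 and 1.14 in control and 1.10 and 1.17 in KO cells, which overlap. So do Apol10b over Apol9a (0.294 and 0.361 against 0.302 and 0.323) and Apol10b over Apol9b (0.356 and 0.411 against 0.334 and 0.377). The separated ratios all have Apol6 on top, so they are not independent of each other. How many pairs of all genes have such an order was not counted. With 2 samples against 2 the smallest two-sided p of an exact permutation test is 0.333, so these ratios were not tested.

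**Figure D4:**
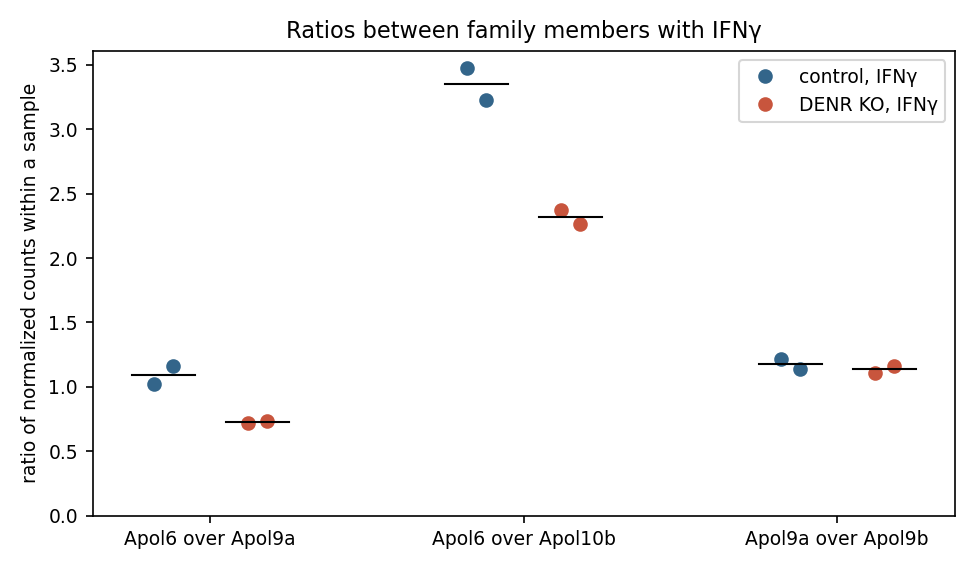
Ratio of normalized counts of members within each IFNγ-treated sample, with lines at the mean of each pair. Apol6 over Apol9a and Apol6 over Apol10b lie lower in both KO samples (0.717 and 0.732, 2.38 and 2.27) than in both controls, and Apol9a over Apol9b overlaps. Both separated ratios share Apol6, and the share of all gene pairs with this order was not counted.

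Of 8 other genes of the family looked for, 6 were listed in a table. Apol11b had 21 reads with IFNγ against 1 untreated in control cells (ratio 21, exact 95% interval 3.39 to 870) and 24 against 1 in KO cells (24.0, 3.91 to 985). With no filter on low counts, its edgeR adjusted p was 0.0036 in control and 0.0024 in KO cells. Apol11a had 5 reads against 0 in control and 0 against 2 in KO cells, and Apol7d, which lies apart on chromosome 1, had 18 against 19 and 11 against 14. Apol7b and Apol7e were listed with IFNγ only, and Apol7e was at 6.15 and 5.03 normalized counts in control and 12.8 and 5.86 in KO cells, which overlap. Apold1, a gene of endothelial cells on chromosome 6 whose protein holds an apolipoprotein L domain, did not pass in any comparison, with an edgeR log2 fold change of -0.20 (adjusted p = 0.79) with IFNγ in control cells.

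The genes whose pattern over the 8 samples was most like that of each member were found by the root mean square difference of log2(normalized count + 1) after centring each gene, among 10326 genes. Their distances are descriptions, and all points share the same libraries. Apol6 was nearest to Igtp (0.343), Gbp3 (0.375) and Gbp2 (0.427), which encode interferon-induced GTPases. Apol9a was nearest to Il15ra (0.0934), a receptor chain of IL-15, and to Psmb10 (0.105), an immunoproteasome subunit, and Apol9b to Psmb10 (0.127) and Apol9a (0.155). Apol10b was nearest to Psmb9 (0.178), another immunoproteasome subunit, and to Irf1 (0.198). Apol7a was nearest to Nmi (0.0887), an interferon-induced gene, and to Zfp36 (0.132), an mRNA decay factor. The third nearest were Dtx3l (0.139) for Apol9a, Il15ra (0.185) for Apol9b, Parp14 (0.217) for Apol10b and AU020206 (0.135) for Apol7a.

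The genes around the cluster were set beside the members. Of 30 tested genes within 500 kb, 1 was lower in KO cells with IFNγ, 1110038F14Rik at -0.30 (limma adjusted p = 0.013), and 1 was higher, Myh9, a nonmuscle myosin heavy chain, at 0.23 (limma adjusted p = 0.012). Of all genes, 2.25% were lower and 1.8% higher at this threshold, and the median log2 fold change of the 30 was 0.02. With IFNγ, 4 of the 30 were higher in control cells and 3 in KO cells at an edgeR adjusted p under 0.05, where 9.26% and 7.22% of all genes were. The 3 that rose in both were 1110038F14Rik (1.26 in control and 0.91 in KO cells), Rbfox2, a splicing factor (0.45 and 0.32), and AL592187.2, a locus annotated as a transcript still to be verified, inside the cluster between Apol9b and Apol8 (1.81 and 2.30). The fourth in control cells was Ppp1r16a (0.26).

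A list of 13 IFNγ pathway genes, which holds receptors, kinases, transcription factors and feedback inhibitors, was set beside the family. In KO cells with IFNγ, 10 of 13 were lower and none higher at a limma adjusted p under 0.05 (2.25% and 1.8% of all genes), with a median log2 fold change of -0.32. Irf1, the transcription factor, was at 17208 and 16991 normalized counts in control and 11900 and 12009 in KO cells (-0.52), and Socs1, the JAK inhibitor, had -0.75. The receptor subunits Ifngr1 and Ifngr2 and the kinase Jak1 did not pass. In the interaction, 4 of 13 were lower at a limma adjusted p under 0.05, Stat3, Irf1, Socs1 and Irf8, as 0.429% of 13998 genes were. Irf8 was near the floor untreated, at 3.02 and 2.04 normalized counts in control and 10.8 and 9.83 in KO cells. Its untreated mean of 6.42 was under the filter of 10, so it entered the fits of 8 samples only through its treated values. Its interaction rests on those few untreated reads. With IFNγ, 12 of 13 were higher in control cells at an edgeR adjusted p under 0.05 (median log2 fold change 2.67), as 9.26% of genes were, and 12 in KO cells (median 1.96), as 7.22% of genes were. The gene that did not pass was Jak1 in control cells (edgeR adjusted p = 0.45) and Ifngr2 in KO cells (edgeR adjusted p = 0.095).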

How the data were processed

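MC38 RNA was sequenced by the authors as poly-A selected, paired Illumina libraries. The processing notes name HISAT2 2.0.5, StringTie 1.3.3b, featureCounts 1.5.0-p3 and DESeq2 1.20.0, and the build mm9, while the IDs and coordinates of the 6 listed members equal GENCODE M21 (GRCm38). The deposited signal is a read count divided by a size factor (0.976 to 1.02), in 1 table for each treatment. In each sample 100% of values were whole multiples of 1 read (tolerance 0.01), so reads were recovered. In KO cells with IFNγ, limma counted 143 genes lower and 72 higher, edgeR on those reads 141 and 72, and DESeq2 122 and 36. The tables also hold group means, fold changes and p-values of the authors' comparison, which were not used.

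Tests had been planned for counts or normalized values, and the latter were found. limma 3.58.1 (R 4.3.3, trend, robust) was fitted to log2(normalized count + 1) of genes with a mean of at least 10, and edgeR 4.0.16 (quasi-likelihood, TMM) to the reads of all 8 samples for IFNγ responses. Benjamini-Hochberg adjustment ran over all genes. Genes were counted at an adjusted p under 0.05, with a log2 fold change beyond 0.5 (KO) or 1 (IFNγ). DESeq2 1.42.0, edgeR, pseudocount 5, no filter, other scalings, a replicate block and leaving out samples were alternatives, and each test was first tried on simulated data. The members, the other family genes, the flanking genes, the pathway and marker lists and the 3 most alike genes per member were named by rule, and members and lists were chosen with earlier results of these data known. Some genes of the pathway list are not reported by name here.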

Additional observations from a re-analysis of the deposited data

Results flagged for a closer look

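Apol10b was picked out because the effect of DENR KO differed between treatments in the test of the difference itself, with an interaction of -0.99 on the log2 scale (limma adjusted p = 0.0087, 8 samples). The KO samples were the lower pair with IFNγ and the higher pair untreated, and the untreated difference on its own did not pass (limma adjusted p = 0.54).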

How the results depend on the processing

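In KO cells with IFNγ, 1 member was counted as lower, against 2 with median centring, 4 with no fold threshold, 0 in a fit of all 8 samples, and 2 to 3 without any 1 of the 4 treated samples. Untreated, 0 were lower in every alternative that kept all samples. This count took the lower direction only, while 4 of 5 untreated estimates were positive, and members counted as higher were not tallied over the alternatives. In the interaction 1 was counted, against 2 with pseudocount 5, 2 in DESeq2, 2 with the replicate block and 0 to 2 when 1 sample was left out. In the IFNγ response of control cells all 5 were counted throughout, and in KO cells 4 to 5, where the 4 came without untreated DENR KO replicate 2 (Apol7a at 0.96). Directions turned for untreated KO effects that had not passed: leaving out 1 sample moved Apol7a between -0.21 and 0.28, negative without either replicate 1, and Apol9a between -0.19 and 0.072, positive without untreated control replicate 1. Untreated Apol9b moved between 0.029 (without control replicate 2) and 0.57 (without control replicate 1), and Apol6 between 0.05 (without DENR KO replicate 2) and 1.05 (without DENR KO replicate 1).

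Whether same-numbered replicates pair was not settled. Over 6 pairs of groups the deviations correlated between -0.017 and 0.23, and 2 pairs were over 0.1. These were control with DENR KO cells under IFNγ (0.22) and control cells with and without IFNγ (0.23), over 10415 genes. The main fits used no pairing. With the replicate block, Apol7a passed in KO cells with IFNγ (limma adjusted p = 0.013) and Apol9b passed in the interaction (limma adjusted p = 0.0019). Over all genes the block gave 175 lower and 110 higher genes with IFNγ against 143 and 72 without it, 28 and 38 against 12 and 18 untreated, and 89 and 13 against 60 and 3 in the interaction. The causes were not tested. Depth limits Apol6 untreated, Apol8 and Apol11b, and 2 samples per group limit all tests.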
